A study of Mus musculus with 6 samples.

Results

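Neurofilament subunits, the growth cone proteins GAP43 and BASP1, and the neuronal RNA-binding proteins of the ELAV and NOVA families were followed in islets after a 24-hour pulse of Sox17. The 10 genes were Ina, Nefl, Nefm, Nefh, Gap43, Basp1, Elavl2, Elavl3, Elavl4 and Nova1. They were taken from a list of neuronal genes that was drawn up with earlier results of these data known. All 10 were among the 19937 genes measured. The tested islets were from 3 Sox17-GOF samples with the genotype Ins2-rtTA;tetO-Sox17, and the controls were 3 samples whose genotype label is Ins2-rtTA, the driver, which acts in insulin-producing cells. A legend of the study gives tetO-Sox17 as the control of other 24-hour measurements, so whether these controls carried the driver rests on the label. By the labels, all mice were C57BL/6 and 16 weeks old, and all received doxycycline in food and water for 24 hours. The mice came from an outbred stock that was crossed back to this strain for at least 3 generations. RNA of whole isolated islets was read on Affymetrix Mouse Gene ST arrays, 1 array per sample, and the deposited values are RMA signals in log2 units, where 1 unit stands for a 2-fold change. Precision is limited by the number of arrays. Levels of different genes are not ranked, since each gene has its own probes.

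Neurofilaments are the intermediate filaments of axons. Alpha-internexin, encoded by Ina, and the light subunit, encoded by Nefl, form the filament core together with the medium and heavy subunits, whose long tails space filaments apart. GAP43 and BASP1 sit on the inner face of the growth cone membrane, bind calmodulin and are substrates of protein kinase C. The neuronal ELAV proteins bind U-rich stretches of messenger RNA and affect its stability, translation and splicing, and NOVA1 is a splicing regulator. β cells share many such genes with neurons. In β cells, ELAVL4 is known to bind insulin messenger RNA and NOVA1 to regulate splicing.

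Sox17 was higher on every Sox17-GOF array, with log2 levels of 6.35, 6.22 and 6.36 in Sox17-GOF islets, against 5.50, 5.72 and 5.71 in control islets (limma log2 fold change 0.67 with a standard error of 0.09, adjusted p = 0.00876). With Sox17-GOF replicate 3 and control replicate 1 both left out, a choice made after seeing the data, the adjusted p was 0.0577. Arrays of one group correlated at 0.984 to 0.991, and arrays of different groups at 0.981 to 0.984. Of the 9 β cell markers, 5 were lower and none higher in Sox17-GOF islets at an adjusted p under 0.05 from limma. This was 55.6%, against 5.21% of all genes called in either direction. The mean log2 level of the markers was 10.59 to 10.70 in Sox17-GOF islets, against 11.09 to 11.10 in control islets. Markers of other endocrine cells averaged 10.91 to 11.29 in Sox17-GOF islets, against 10.94 to 11.13 in control islets. Acinar markers, from the exocrine pancreas, were also bright, with means of 12.40 to 13.38 in Sox17-GOF islets, against 12.97 to 13.22 in control islets. In RNA of whole islets, more cells of a type and more RNA per cell cannot be told apart.

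Of the 10 genes, 3 were higher in Sox17-GOF islets at an adjusted p under 0.05, none was lower, and for 7 the adjusted p was above the threshold. These were Elavl2, Ina and Basp1, 1 gene from each of the 3 roles. Over all 19937 genes, 5.21% were called, 2.77% higher and 2.44% lower, and over the 22961 probe sets behind the adjustment, 4.93% were called, 2.61% higher and 2.32% lower. The median log2 fold change was 0.37 over the 10 genes and -0.01 over all genes. Because the 10 genes were chosen with earlier results of these data known, setting them beside all genes is not a test. On 4 of the 10 genes, the 3 above and Gap43, every Sox17-GOF array lay above every control array, which was so for 11.3% of all genes. The groups overlapped on the other 6, and over all genes 25.5% had groups that did not overlap in either direction. Ranked by increase among all genes, Elavl2 stood at 97, Ina at 140, Gap43 at 200, Nefl at 355 and Basp1 at 665.

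**Figure D1:**
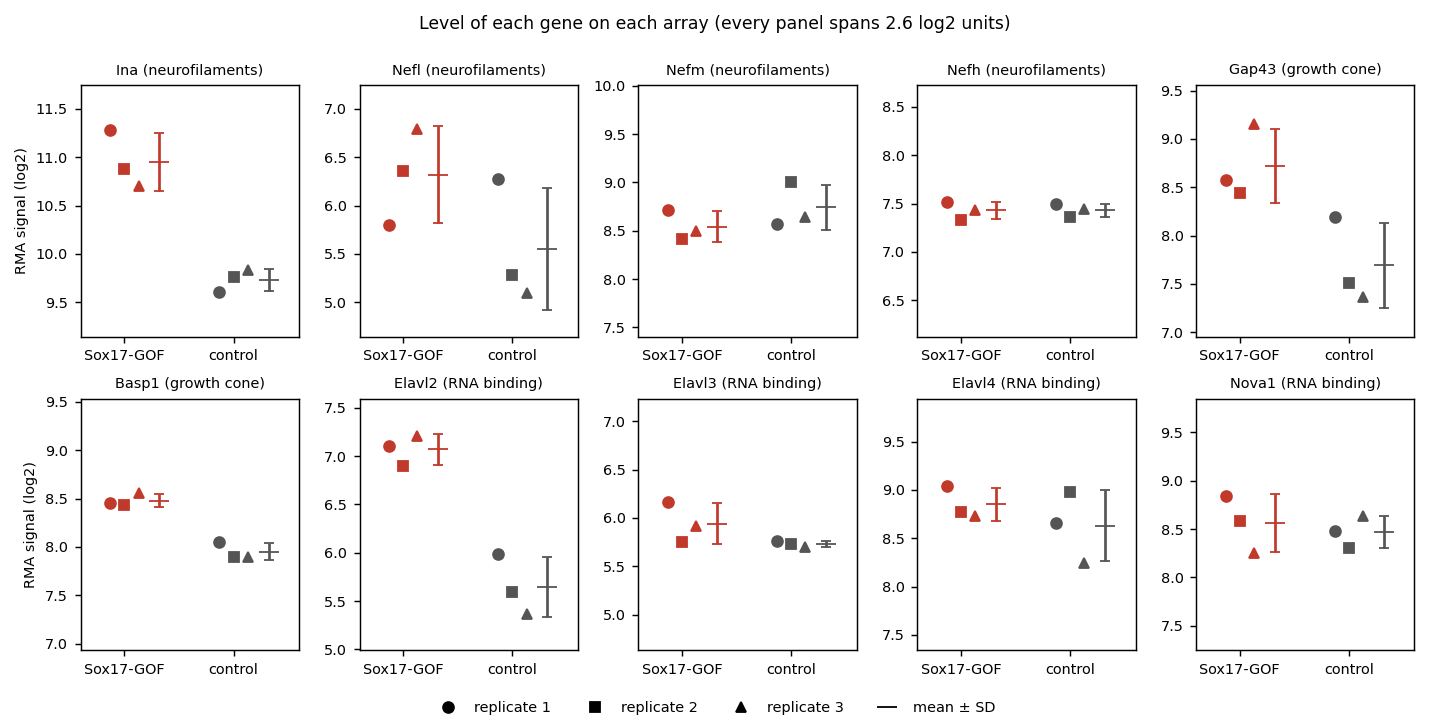
Log2 RMA signal of the 10 genes on each array, Sox17-GOF in red and control in grey (3 arrays each; symbols mark the replicate, bars the mean ± SD). In the panels of Elavl2, Ina, Basp1 and Gap43 all red symbols lie above all grey ones, and in the other 6 panels they mix.

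Ina had the highest fold among the neurofilament genes. Its brighter probe set read 11.28, 10.88 and 10.70 in Sox17-GOF islets, against 9.61, 9.76 and 9.83 in control islets. The groups lay 0.87 apart at their nearest arrays. This was a 2.33-fold increase (95% interval 1.83 to 2.96; limma log2 fold change 1.22 with a standard error of 0.15, adjusted p = 0.0055). A separate probe set of Ina gave 10.79, 10.64 and 10.66 in Sox17-GOF islets, against 9.31, 9.08 and 9.07 in control islets, a 2.92-fold increase (95% interval 2.51 to 3.41, adjusted p = 0.000327). Both probe sets were therefore called higher, and the second had the smaller spread. The call of Ina held in every set of 5 arrays, with log2 fold changes of 1.06 to 1.35.

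Nefl, the light subunit, varied most between arrays. Its log2 levels were 5.80, 6.36 and 6.79 in Sox17-GOF islets, against 6.27, 5.28 and 5.10 in control islets. Control replicate 1 lay above Sox17-GOF replicate 1, so the groups overlapped, and the test was not passed (log2 fold change 0.76, 95% interval -0.04 to 1.56, adjusted p = 0.286). Without control replicate 1 the log2 fold change was 1.12 and the adjusted p 0.109.

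Nefm, the medium subunit, read 8.71, 8.41 and 8.50 in Sox17-GOF islets, against 8.57, 9.00 and 8.64 in control islets. Its log2 fold change was -0.19 (95% interval -0.51 to 0.12, adjusted p = 0.507). Nefh, the heavy subunit, read 7.52, 7.33 and 7.43 in Sox17-GOF islets, against 7.50, 7.36 and 7.44 in control islets. Its mean was 7.43 in both groups, with a 95% interval of the log2 fold change from -0.20 to 0.19, so a change of the size measured for Ina lay outside the interval of either subunit. Array by array, Ina minus Nefm was 2.20 to 2.56 in Sox17-GOF islets, against 0.76 to 1.19 in control islets. Ina minus Nefh was 3.27 to 3.76 in Sox17-GOF islets, against 2.11 to 2.40 in control islets. Neither range overlapped between the groups. Against Nefl, the difference was 3.91 to 5.48 in Sox17-GOF islets, against 3.33 to 4.72 in control islets, and these ranges did overlap.

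The growth cone genes were both higher on every Sox17-GOF array, and 1 of them passed the test. Basp1 read 8.45, 8.43 and 8.56 in Sox17-GOF islets, against 8.05, 7.90 and 7.90 in control islets. The replicates lay close together, with SDs of 0.07 in Sox17-GOF islets, against 0.09 in control islets. Basp1 was 1.44-fold higher (95% interval 1.26 to 1.65; limma log2 fold change 0.53 with a standard error of 0.08, adjusted p = 0.0136). The call ended without control replicate 2 (adjusted p = 0.0706) or control replicate 3 (0.0565), with a log2 fold change of 0.50 in each case.

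Gap43 read 8.57, 8.44 and 9.15 in Sox17-GOF islets, against 8.19, 7.51 and 7.36 in control islets. Sox17-GOF replicate 3 was the highest array and control replicate 1 the highest control, 0.24 below the lowest Sox17-GOF array. The estimate was larger than that of Basp1, a 2.04-fold difference (95% interval 1.35 to 3.08; log2 fold change 1.03 with a standard error of 0.25), but with the wider spread it did not pass (adjusted p = 0.0668 from limma). Without control replicate 1 the log2 fold change was 1.28 and the adjusted p 0.0419. Without Sox17-GOF replicate 3 they were 0.81 and 0.127. Its adjusted p thus crossed the threshold when control replicate 1 was left out. Whether Basp1 and Gap43 changed by different amounts could not be seen, since Basp1 minus Gap43 was -0.59 to -0.01 in Sox17-GOF islets, against -0.14 to 0.54 in control islets.

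Elavl2 had the largest fold of the 10 genes as read from their brighter probe sets. Its log2 levels were 7.10, 6.90 and 7.21 in Sox17-GOF islets, against 5.99, 5.59 and 5.37 in control islets. The groups lay 0.92 apart at their nearest arrays. Elavl2 was 2.68-fold higher (95% interval 2.07 to 3.47; limma log2 fold change 1.42 with a standard error of 0.16, adjusted p = 0.00425). Its call held in every set of 5 arrays, with log2 fold changes of 1.28 to 1.59.

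The other ELAV genes did not pass the test. Elavl3 read 6.16, 5.75 and 5.92 in Sox17-GOF islets, against 5.76, 5.73 and 5.70 in control islets, a log2 fold change of 0.21 (95% interval -0.05 to 0.47, adjusted p = 0.362). Elavl4 read 9.04, 8.77 and 8.73 in Sox17-GOF islets, against 8.66, 8.98 and 8.24 in control islets, a log2 fold change of 0.22 (95% interval -0.21 to 0.65, adjusted p = 0.593). In both, the upper end of the interval lay below the lower end of the interval of Elavl2. Array by array, Elavl2 minus Elavl4 was -1.94 to -1.52 in Sox17-GOF islets, against -3.39 to -2.67 in control islets. Elavl2 minus Elavl3 was 0.94 to 1.29 in Sox17-GOF islets, against -0.33 to 0.23 in control islets. The ranges of both differences were separate. Of the 6 differences between a called gene and a relative, 4 had separate groups, with an exact permutation p = 0.10 each (two-sided, 0.15 adjusted over the 6), and 0.10 is the smallest p that 3 arrays against 3 allow. The called gene of each pair was already higher on these same arrays, so separate groups are not independent evidence of a difference.

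Nova1 had no common direction over its probe sets. Its brighter probe set read 8.84, 8.58 and 8.25 in Sox17-GOF islets, against 8.48, 8.30 and 8.63 in control islets (log2 fold change 0.09, 95% interval -0.28 to 0.45, adjusted p = 0.83 from limma). The dimmer probe set gave a log2 fold change of -0.28 (95% interval -0.68 to 0.13, adjusted p = 0.463). These values per probe set were not used to look at splicing, the process in which NOVA1 acts.

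**Figure D2:**
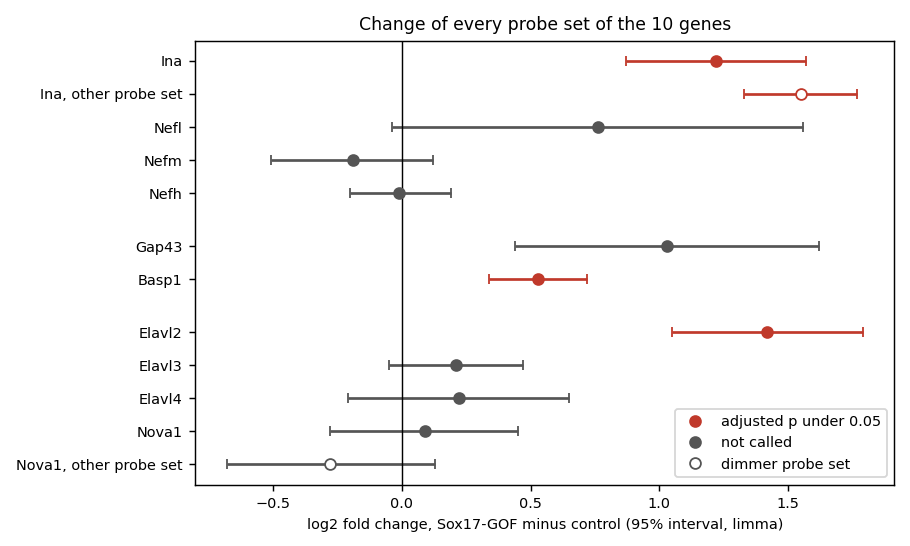
Log2 fold change of every probe set of the 10 genes, Sox17-GOF minus control, with the 95% interval from limma (3 arrays per group). Filled circles are the brighter and open circles the dimmer probe set of a gene, and red marks an adjusted p under 0.05; both probe sets of Ina are red, those of Nova1 lie on either side of 0.

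The bases before the start sites were read for the called genes and for their relatives. Shared regulation of the called genes was not tested. RefSeq windows (GRCm38.p6) of 250 bases before a start site were used for 6 of the 10 genes, Ina, Basp1, Elavl2, Elavl3, Elavl4 and Nova1, and not for Gap43, Nefl, Nefm and Nefh. The windows of Ina (chr19:47014431-47014680, plus strand) and Basp1 (chr15:25413765-25414014, minus strand) lie wholly before the annotated gene and are shown. Those of the other 4 genes lie at least in part inside it. Capitals mark the GC box (GGGCGG, or CCGCCC on the other strand).
Ina: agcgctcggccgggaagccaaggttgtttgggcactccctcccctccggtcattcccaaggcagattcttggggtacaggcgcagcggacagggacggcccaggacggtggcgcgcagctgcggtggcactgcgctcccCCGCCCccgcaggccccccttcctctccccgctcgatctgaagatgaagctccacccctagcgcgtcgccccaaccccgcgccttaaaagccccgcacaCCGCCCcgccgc
Basp1: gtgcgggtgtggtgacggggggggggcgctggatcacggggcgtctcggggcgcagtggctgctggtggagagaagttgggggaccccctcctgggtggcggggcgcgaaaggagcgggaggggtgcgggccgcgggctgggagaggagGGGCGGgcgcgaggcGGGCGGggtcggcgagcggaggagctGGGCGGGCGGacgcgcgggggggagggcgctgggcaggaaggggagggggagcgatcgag

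Both windows were GC-rich, with 70.8% G or C for Ina and 78.8% for Basp1, at the 92.2 and 98.4 percentiles of the 32851 mouse windows, whose median was 52.4%. Ina held 2 GC boxes and Basp1 held 4, of which the last 2 overlap. RefSeq lists several start sites for Elavl2 and Elavl4, and some of their windows overlap. The GC box was in 5 of the 6 windows of Elavl2, with the most upstream one as the exception, and in 0 of the 4 windows of Elavl4. Elavl3 had 1 GC box in its window and Nova1 had none, and 32.7% of all windows held one. The GC box is made of G and C only, and its share among windows as GC-rich as those of Ina and Basp1 was not counted. The core letters bound by SOX factors (ACAAT, or ATTGT on the other strand) were in no window of Ina, Basp1, Elavl3 or Nova1. They were in 1 of the 6 windows of Elavl2 and in 2 of the 4 windows of Elavl4, against 27.7% of all windows. The left part of the site of the neuronal repressor REST, searched on both strands as TTCAGCACC, stands in 0.301% of all windows and was found in none of the 14 windows of these genes. A match of letters is not evidence of binding, and a missing match says only that the letters are not in these bases.

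The arrays of one group differed among each other in some of these genes. Within the Sox17-GOF group, replicate 1 was highest for 6 of the 10 genes and replicate 3 for 4, and replicate 3 was lowest for 3. Within the control group, replicate 1 was highest for 6 and lowest for 2. Gap43, Nefl, Basp1 and Elavl2 were each highest on Sox17-GOF replicate 3 and on control replicate 1 within their groups. So were some nerve genes, named after their values were seen. Prph, the intermediate filament of peripheral neurons, read 6.70, 6.91 and 7.40 in Sox17-GOF islets, against 7.25, 6.56 and 6.39 in control islets. Stmn2, a stathmin of growing axons, read 7.07, 6.95 and 8.06 in Sox17-GOF islets, against 7.47, 6.76 and 6.65 in control islets. Vip, a neuropeptide of pancreatic nerves, read 6.96, 6.65 and 8.21 in Sox17-GOF islets, against 7.74, 6.61 and 5.80 in control islets. The same held for Npy, another neuropeptide, and for Chrna3, a nicotinic receptor subunit of autonomic neurons. None of these 5 passed the test, with log2 fold changes of 0.26 for Prph to 0.56 for Vip. Of the 13 measured markers of neuron cell bodies, 7 were highest on both arrays, 10 on Sox17-GOF replicate 3 and 8 on control replicate 1, while 2 were lowest on Sox17-GOF replicate 3 and 2 on control replicate 1. Th, the enzyme of catecholamine synthesis, was lowest on both. The order was not particular to nerve genes, since each measured acinar marker was also highest on both arrays. Cela1, for example, read 11.93, 12.92 and 13.35 in Sox17-GOF islets, against 13.21, 12.81 and 12.85 in control islets. How many of all genes were highest on both arrays was not counted. The brighter probe set of Ina had its lowest value of each group on these arrays, whereas the other was highest on control replicate 1 among the controls.

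**Figure D3:**
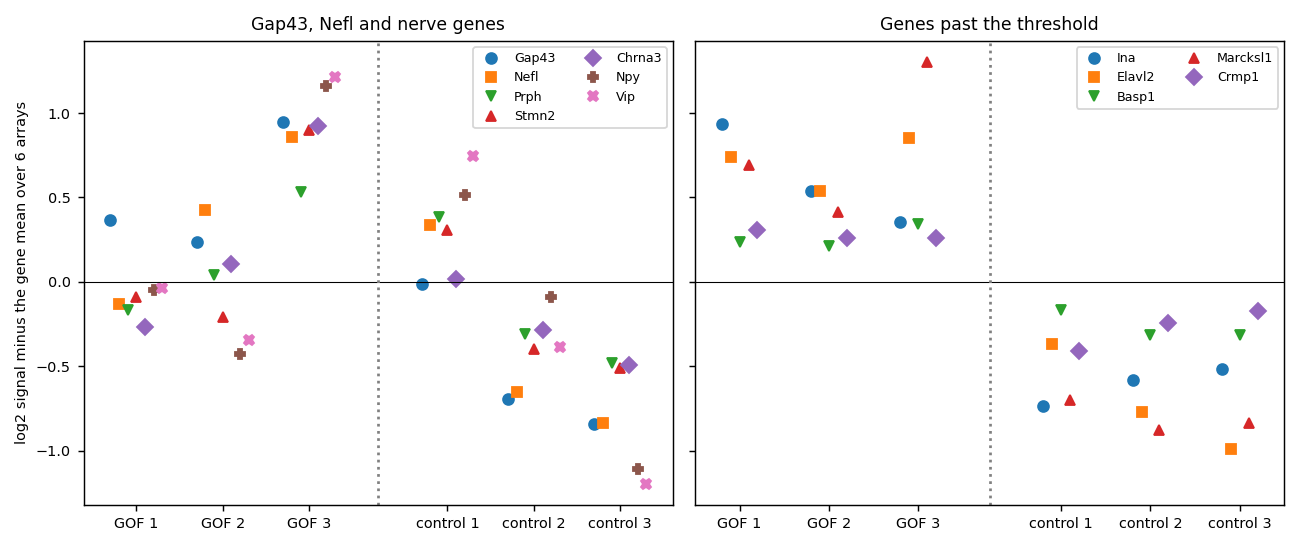
Log2 signal of each gene minus its mean over the 6 arrays, for Sox17-GOF replicates 1 to 3 (GOF) and control replicates 1 to 3. On the left, Gap43, Nefl and 5 nerve genes are each highest on GOF 3 and on control 1 within their group. The 5 nerve genes were chosen after their values were seen. On the right, Ina, Elavl2, Basp1, Marcksl1 and Crmp1 lie above 0 on every Sox17-GOF array and below 0 on every control array. They were picked from genes called higher, and genes called lower are not drawn.

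The whole list of markers of neuron cell bodies, 13 of 14 measured, held no gene that was higher. It held 2 that were lower in Sox17-GOF islets. The list thus had 15.4% called, against 5.21% of all genes. Its mean log2 level was 6.41 to 6.81 in Sox17-GOF islets, against 6.33 to 6.76 in control islets, and its median log2 fold change 0.10. No marker on it lay, on average, below 4.63, the 20th percentile of all values, although Dbh, which makes noradrenaline, came close with 4.70 to 4.95 in Sox17-GOF islets, against 4.76 to 5.15 in control islets. The markers that were lower, named after their values were seen, were Th, the rate-limiting enzyme of catecholamine synthesis (log2 fold change -0.94, adjusted p = 0.0058 from limma), and Ret, the receptor tyrosine kinase of the GDNF family (-0.84, adjusted p = 0.00431). β cells are known to express both. Of 7 measured Schwann and glial markers, limma called none and 1 had an unadjusted p under 0.05 (none by the methods' t-test). Over all 19937 genes, 3923 had an unadjusted p under 0.05 by limma and 3352 by the methods' t-test. The mean level of the Schwann and glial markers was 5.83 to 6.02 in Sox17-GOF islets, against 5.77 to 5.86 in control islets. With Sox17-GOF replicate 3 and control replicate 1 both left out, 3 of the 10 genes were called, Elavl2 (log2 fold change 1.52, adjusted p = 0.00774), Ina (1.29, 0.0204) and Gap43 (1.07, 0.0139), and Basp1 was not (0.54, 0.0556). The part of nerve RNA in the values of Gap43, Nefl, Basp1 and Elavl2 was not tested.

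Genes around the 10 were looked up in lists drawn up by role with earlier results of these data known, without set tests. The median log2 fold change of 12 other intermediate filament genes was 0.07. Of these, 1 was higher and none was lower, 8.33% called against 5.21% of all genes. The gene was Krt8, a keratin of simple epithelia, at 11.79, 11.47 and 11.95 in Sox17-GOF islets, against 11.19, 11.01 and 11.21 in control islets (1.52-fold, adjusted p = 0.0433 from limma). It was no longer called without any 1 array except Sox17-GOF replicate 2 (adjusted p up to 0.156), nor with all probe sets tested (0.101) or without Sox17-GOF replicate 3 and control replicate 1 (0.164). Of 4 measured markers of duct cells, which also express Krt8, none was called. Their mean log2 levels were 7.12 to 7.91 in Sox17-GOF islets, against 7.06 to 7.16 in control islets. Krt19 among them read 6.74, 7.07 and 9.13 in Sox17-GOF islets, against 6.53, 6.30 and 6.16 in control islets. Krt7 went the other way, with 10.26, 10.36 and 10.08 in Sox17-GOF islets, against 10.54, 10.58 and 10.62 in control islets. Sox9 and Cftr had log2 fold changes of 0.21 and 0.24. The part of duct cells in the value of Krt8 was not tested. Nes, Gfap and Vim, filament genes of progenitors, glia and mesenchyme, had log2 fold changes of 0.02, 0.01 and 0.34 and did not pass.

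Of 14 measured genes for neurofilament transport, linkage and modification, 1 was higher and none was lower (7.14% called, against 5.21% of all genes). The median was 0.01. Trim2, a ubiquitin ligase whose known substrates include the light subunit in mice, read 7.19, 7.11 and 6.93 in Sox17-GOF islets, against 6.70, 6.54 and 6.41 in control islets (1.44-fold, adjusted p = 0.0349). It was no longer called without any 1 array except Sox17-GOF replicate 3 (adjusted p up to 0.127), nor with median centring (0.0549) or all probe sets tested (0.0836). Kif5a, Kif5b and Kif5c, heavy chains of the kinesin that carries neurofilaments, had log2 fold changes between -0.00 and 0.21, none past the test.

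The list of growth cone membrane proteins and their partners moved both ways. Of 15 measured genes, 2 were higher, 2 were lower and 11 did not pass (26.7% called, against 5.21% of all genes). The median was 0.11. Marcksl1, a relative of BASP1 and GAP43 as a calmodulin-binding substrate of protein kinase C, read 8.61, 8.33 and 9.22 in Sox17-GOF islets, against 7.22, 7.04 and 7.08 in control islets. It was 3.05-fold higher (95% interval 2.19 to 4.25, limma log2 fold change 1.61 with a standard error of 0.21, adjusted p = 0.00658), more than any of the 10 genes. Marcks itself had a log2 fold change of 0.32 with separate groups and an adjusted p of 0.071. Crmp1, a collapsin response mediator of growth cones and outside the naming rule, was also higher (log2 fold change 0.55, adjusted p = 0.0143; 0.0619 without control replicate 2 and 0.0772 without Sox17-GOF replicate 3 and control replicate 1). The 2 lower genes, Prkcb and Prkca, were the protein kinase C genes on the list. Prkcb read 8.50, 8.16 and 8.26 in Sox17-GOF islets, against 9.12, 9.06 and 8.99 in control islets (log2 fold change -0.75, adjusted p = 0.00859; 0.0768 without Sox17-GOF replicate 3 and control replicate 1). Prkca read 8.14, 7.81 and 8.20 in Sox17-GOF islets, against 9.07, 8.71 and 8.59 in control islets (log2 fold change -0.74, adjusted p = 0.0355); it was no longer called without any 1 array except Sox17-GOF replicate 3 (adjusted p up to 0.107), nor with the replicate number as a block (0.0523), all probe sets tested (0.0889), or Sox17-GOF replicate 3 and control replicate 1 left out (0.0818).

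Among 22 other RNA-binding and splicing factors of neurons, 1 was higher, none was lower and 21 did not pass. This was 4.55% called, against 5.21% of all genes, and the median was 0.04. Khdrbs3, a splicing factor of the STAR family, read 10.51, 10.33 and 10.20 in Sox17-GOF islets, against 9.89, 9.91 and 9.85 in control islets (1.38-fold, adjusted p = 0.0356 from limma). It was no longer called without any 1 array except Sox17-GOF replicate 3 (adjusted p up to 0.116), nor with the replicate block (0.0666), median centring (0.0654), all probe sets tested (0.0826), or Sox17-GOF replicate 3 and control replicate 1 left out (0.0811). Elavl1, the ELAV protein of all tissues, had a log2 fold change of -0.05, and Nova2 one of 0.10. Neither Rbfox3, the neuronal nuclear antigen NeuN (0.10), nor Ptbp2 (0.04) passed.

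Of 9 measured transcripts that neuronal ELAV proteins are known to bind, limma called none, with 1 at an unadjusted p under 0.05 by limma and 1 by the methods' t-test, and the median was 0.05. Ins2, whose translation ELAVL4 is known to repress in β cells, read 13.02, 13.12 and 13.08 in Sox17-GOF islets, against 13.03, 13.12 and 13.10 in control islets, near the arrays' upper end, and Mapt, the microtubule protein tau, had a log2 fold change of 0.01. Of 10 genes of the REST repressor complex, limma called none, with 4 at an unadjusted p under 0.05 by limma and 3 by the methods' t-test. Over all 19937 genes, 3923 had an unadjusted p under 0.05 by limma and 3352 by the methods' t-test. Rest itself read 6.72, 6.20 and 6.83 in Sox17-GOF islets, against 6.26, 5.95 and 6.21 in control islets, with overlapping groups (log2 fold change 0.44, adjusted p = 0.217).

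**Figure D4:**
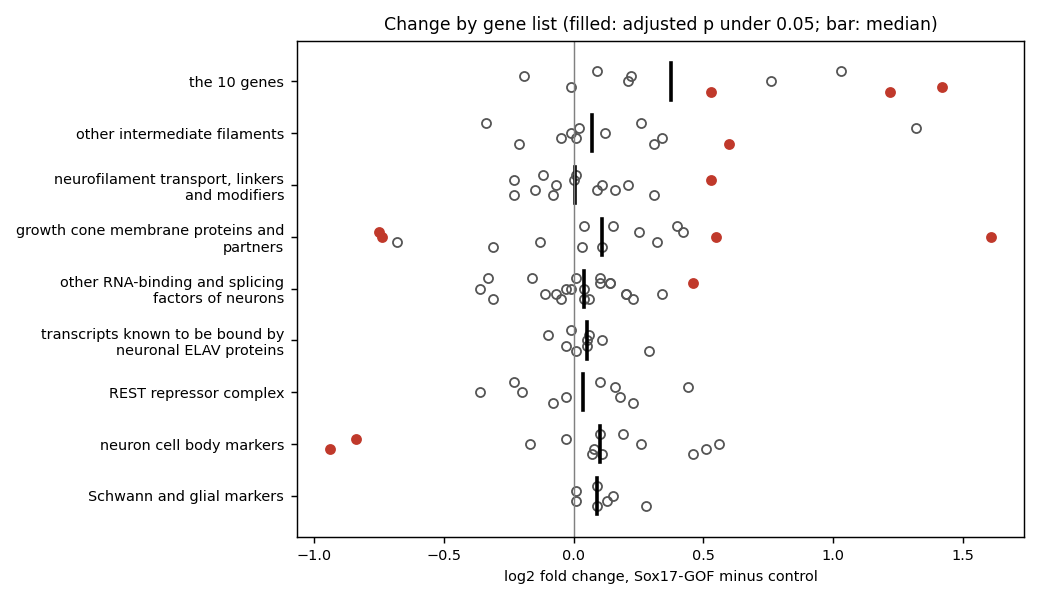
Log2 fold change, Sox17-GOF minus control, of the 10 genes, the members of 6 related lists and 2 lists of cell type markers. Each circle is a gene, filled red at an adjusted p under 0.05 from limma, and the black bar is the median, 0.37 for the 10 genes and between 0.01 and 0.11 for the other lists.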

How the data were processed

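The deposited values are log2 signals of Affymetrix Mouse Gene ST arrays, which the authors made by RMA (background correction, quantile normalization and median polish). For this step GeneSpring is given in the methods, but Affymetrix Expression Console in the submitters' processing notes; the genome build is not given in the sources used here. All 6 arrays were used as deposited. Sox17-GOF was compared with control with lmFit and eBayes of limma 3.58.1 (R 4.3.3). Benjamini-Hochberg adjustment of the p-values ran over the 22961 of 34760 probe sets with a gene symbol, of which 1133 (4.93%) passed 0.05. Each gene was read from its brightest probe set with 1 symbol. The 10 genes and the lists were chosen with earlier results of these data known, some of them from a table made from the same arrays. No limma p was therefore adjusted over them, and no list was tested. Named were the 10 genes, Sox17 and up to 3 called genes per list with the largest change; others are marked or serve as examples of a list. Alternatives left out each array in turn, averaged probe sets per gene, fitted array weights, an intensity trend or a replicate block, tested all probe sets or none that were dim, centred arrays on the median or quantile-normalized them, or used the methods' t-test with a fold of 1.3. The procedure was tested on simulated data. The methods call the samples biological triplicates. Motifs were counted with Python 3.11.15.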

Additional observations from a re-analysis of the deposited data

How the results depend on the processing

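The calls of Elavl2 and Ina held under every alternative run except the methods' t-test after Benjamini-Hochberg, with log2 fold changes of 1.28 to 1.59 for Elavl2 and 1.06 to 1.38 for Ina. That test called 0 of the 10 genes and none of the 7 other genes named as called in the lists around them. Unadjusted at 0.05 with a fold of at least 1.3, 4 of the 10 genes passed it, as did 1623 of the 22961 probe sets with a symbol. After Benjamini-Hochberg the test called 71 probe sets in all and left Sox17 at a log2 fold change of 0.67 with an adjusted p of 0.0906. With each array left out in turn, 2 to 4 of the 10 genes were called and 385 to 1020 probe sets. The lowest counts came without control replicates 1 (472), 2 (385) and 3 (521) and Sox17-GOF replicate 2 (651). With Sox17-GOF replicate 3 and control replicate 1 both left out, 488 probe sets were called and Sox17 had a log2 fold change of 0.57. With all probe sets tested, 558 were called. With the replicate block, 720 were called; the same 3 of the 10 genes passed, and same-numbered arrays deviated from their group means with correlations of -0.04 to 0.05, so the numbers were not taken to pair the arrays. Values near 0 changed sign. Nefh was 0.01 with quantile normalization, 0.03 without the 2 arrays, and -0.05 to 0.04 with 1 array left out. Nova1 was -0.09 as the mean of its probe sets and -0.05 to 0.24 with 1 array left out. Levels near the 20th percentile lie close to the background of the arrays.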
